A study of Mus musculus with 2 samples.

Results

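The 10 genes described here are *Fos*, *Fosb*, *Jun*, *Junb*, *Jund*, *Egr1*, *Ier2*, *Atf3*, *Nr4a1* and *Dusp1*, immediate early genes followed across the lymphoid and myeloid cells of the mouse omentum. They were taken by symbol from the 19960 genes listed for the series, and all 10 were found. *Fos* is listed by its Ensembl identifier only (ENSMUSG00000021250) and was named from the GENCODE annotation. Cells were sorted into classes by the marker genes found in each cell, none of which was a member. Of the 8654 WT cells kept, 7692 carried lymphoid or myeloid markers of 1 lineage, as did 5046 of the 5727 *Postn*-DTR cells.

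The omentum is a peritoneal fat depot with lymphoid clusters called milky spots, and its cells were profiled by droplet single-cell RNA sequencing, which counts each captured transcript by a unique molecular identifier (UMI). One library came from WT mice and 1 from *Postn*-DTR mice (DTR below), each made from the pooled omenta of several mice. DTR mice were heterozygotes with the diphtheria toxin receptor placed in the first coding exon of *Postn*, so the receptor is made where that promoter is active, also outside the fibroblastic reticular cells that the study meant to remove. Both groups received a single intraperitoneal injection of diphtheria toxin (DT) and were examined 5 days later, and the labels give neither age nor sex. With 1 library per group there was no replicate, so no test was possible, and every interval below covers counting error only.

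Immediate early genes are switched on within minutes of a stimulus from factors already present in the cell, without new protein synthesis, and their transcripts are short-lived. *Fos*, *Fosb*, *Jun*, *Junb* and *Jund* encode subunits of the AP-1 transcription factor, *Atf3*, *Egr1* and *Nr4a1* encode other transcription factors, *Ier2* encodes a nuclear protein, and *Dusp1* encodes a phosphatase that turns off the MAP kinases which drive many of the others. In lymphocytes these genes follow antigen receptor signals, in myeloid cells they follow microbial and cytokine signals, and in many cell types enzymatic tissue digestion induces them as well. The omenta here were dissociated with Liberase TM and DNase I, so levels present in the tissue and levels gained during digestion cannot be told apart.

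Because these genes are known for sharing response elements, the bases before the start site are shown for the 6 members whose window held a core of the cyclic AMP response element (CRE). Windows of 300 bases, 250 before and 50 after the start site, were given by RefSeq on GRCm38.p6 for 8 of the 10 members (not *Egr1* or *Ier2*). Capitals mark the core (TGACG, or CGTCA where it lies on the other strand), the full CRE, which contains it on both strands, and a TATAAA box. Each stretch is read 5′ to 3′ on the strand of its gene.
*Fos*, chr12:85473740-85473889, plus strand: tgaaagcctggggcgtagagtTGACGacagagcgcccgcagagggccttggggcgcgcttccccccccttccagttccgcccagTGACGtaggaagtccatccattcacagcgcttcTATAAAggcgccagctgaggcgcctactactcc
*Fosb*, chr7:19310046-19310125, minus strand: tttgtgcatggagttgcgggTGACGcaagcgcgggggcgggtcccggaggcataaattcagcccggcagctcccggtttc
*Junb*, chr8:84978749-84978878, minus strand: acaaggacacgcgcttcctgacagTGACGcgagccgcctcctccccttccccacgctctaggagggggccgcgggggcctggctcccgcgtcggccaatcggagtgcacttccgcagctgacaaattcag
*Atf3*, chr1:191183334-191183383, minus strand: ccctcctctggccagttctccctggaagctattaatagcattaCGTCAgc
*Nr4a1*, chr15:101266596-101266845, plus strand: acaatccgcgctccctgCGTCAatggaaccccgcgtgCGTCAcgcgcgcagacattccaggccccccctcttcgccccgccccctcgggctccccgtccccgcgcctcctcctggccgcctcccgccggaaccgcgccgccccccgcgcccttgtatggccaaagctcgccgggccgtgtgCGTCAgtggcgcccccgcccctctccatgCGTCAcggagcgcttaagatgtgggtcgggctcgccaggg
*Dusp1*, chr17:26508573-26508672, minus strand: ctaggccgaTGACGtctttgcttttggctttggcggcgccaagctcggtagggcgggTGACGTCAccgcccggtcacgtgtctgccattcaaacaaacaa

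The core was found in 6 of the 8 member windows and in 20.8% of all 32851 windows of the same length, counted on both strands. *Nr4a1* held 4 of them, at 233, 213, 69 and 40 bases before its start site. The full CRE (TGACGTCA, both strands) was found in *Dusp1* alone, 143 bases before the start, and in 1.79% of all windows. TATAAA, searched on the strand of the gene, was found in *Fos*, 33 bases before the start site, in *Junb* from the start site onwards, outside the stretch shown, and in 8.32% of all windows. Neither the AP-1 site (TGACTCA or TGAGTCA, 5.20% of all windows) nor the CArG box of serum response elements (1.63%), both searched on both strands, was found in any of the 8 windows. Sites more than 250 bases before the start, and those of *Egr1* and *Ier2*, were not searched. *Ier2* and *Junb* both lie on chromosome 8, with 311631 bases between them in the GENCODE annotation.

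The cells kept held 80152218 UMIs in WT and 81011069 in DTR, with a median of 5635 and 8472 UMIs per cell, and 65 barcode sequences occurred in both libraries. The marker rules set apart 20 cell classes, whose names stand for cells that carry the markers and not for sorted populations, and 13 of them held at least 50 cells in both libraries and were compared. A further 574 WT and 101 DTR T cells and 675 WT and 462 DTR B cells were given no subset by the marker rules and are not among the 20. Each compared class had at least 2 of its own markers found in at least 50% of its cells in both libraries, except the CD4 T cells outside the naive and regulatory subsets, which have *Cd4* as their 1 marker beside those of T cells. In the B1 B class 2 of its 4 markers (*Bhlhe41*, *Zbtb32*, *Cd5*, *Spn*) were found at that frequency, beside all 6 general B cell markers. Cells left without a class, 472 in WT and 463 in DTR, were not poor in member transcripts, with a summed level of 109 and 112 UMIs per 10000.

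**Figure D1:**
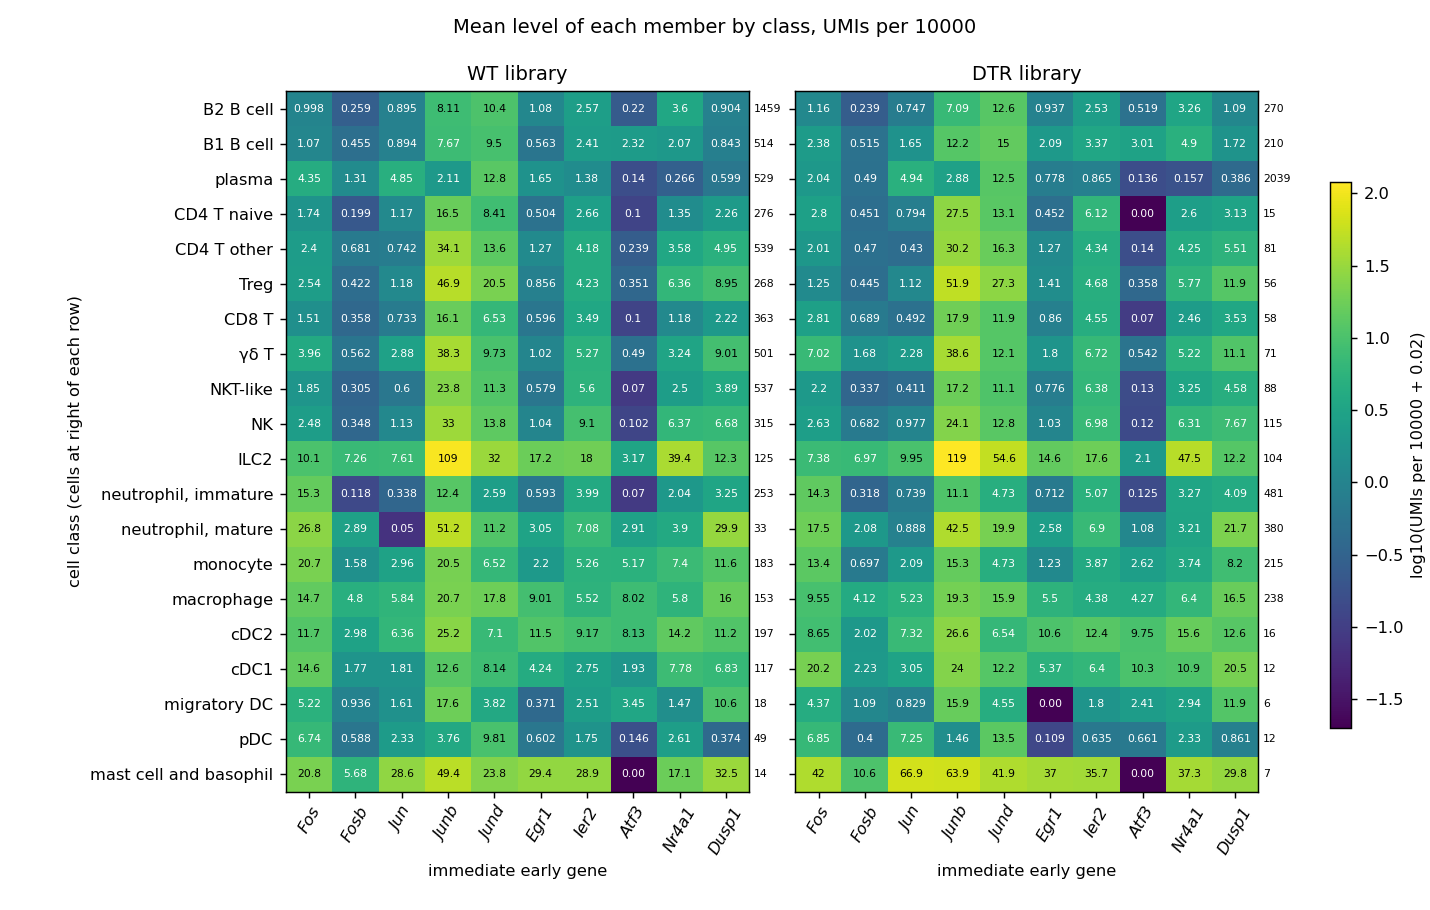
Mean level of each member (columns) in each cell class (rows), in UMIs per 10000 UMIs of the cell averaged over cells, for the WT library (left) and the DTR library (right); the colour is on a log10 scale with 0.02 added, and the number of cells stands at the right of each row. ILC2 stand out in both libraries for *Junb* (109 and 119) and *Nr4a1* (39.4 and 47.5).

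Levels are given as UMIs per 10000 UMIs of the cell, averaged over the cells of a class. They are counts of transcript tags and are compared between classes, not between genes. The summed level of the 10 members was highest, among the 18 classes with at least 10 cells in both libraries, in group 2 innate lymphoid cells (ILC2, tissue lymphocytes that make type 2 cytokines), at 256 in WT and 292 in DTR. It was lowest in B1 B cells in WT (27.8) and in plasma cells in DTR (25.1). Counted as UMIs over all UMIs of the class, ILC2 stood at 234 (95% exact Poisson interval 230 to 237) in WT and at 278 (272 to 283) in DTR. No other interval among the 18 classes reached theirs. Mast cells and basophils, with only 14 and 7 cells, were not among the 18 and had summed levels of 236 in WT and 365 in DTR. The order of the 18 classes was similar in both libraries, with a Spearman's rho of 0.84 for the sum and of 0.73 to 0.93 for single members, as a description over classes that share depth and library.

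Neighbours in that order could often not be separated. In WT, γδ T cells and NK cells (72.9 and 72.8 UMIs per 10000 of the class) had overlapping intervals, as had plasma cells, plasmacytoid dendritic cells and B2 B cells at 29.7, 28.7 and 27.4, each with the next. In DTR the intervals overlapped from monocytes (42.6) through B1 B cells (41.6), CD8 T cells (40.1) and plasmacytoid dendritic cells (36.1) to neutrophils with immature markers (33.9), each with the next. *Junb* and *Jund* together gave 55.1% of the summed level in WT ILC2, 73.0% in WT regulatory T cells and 32.2% in WT monocytes, so the sum weighs these members differently between classes.

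**Figure D2:**
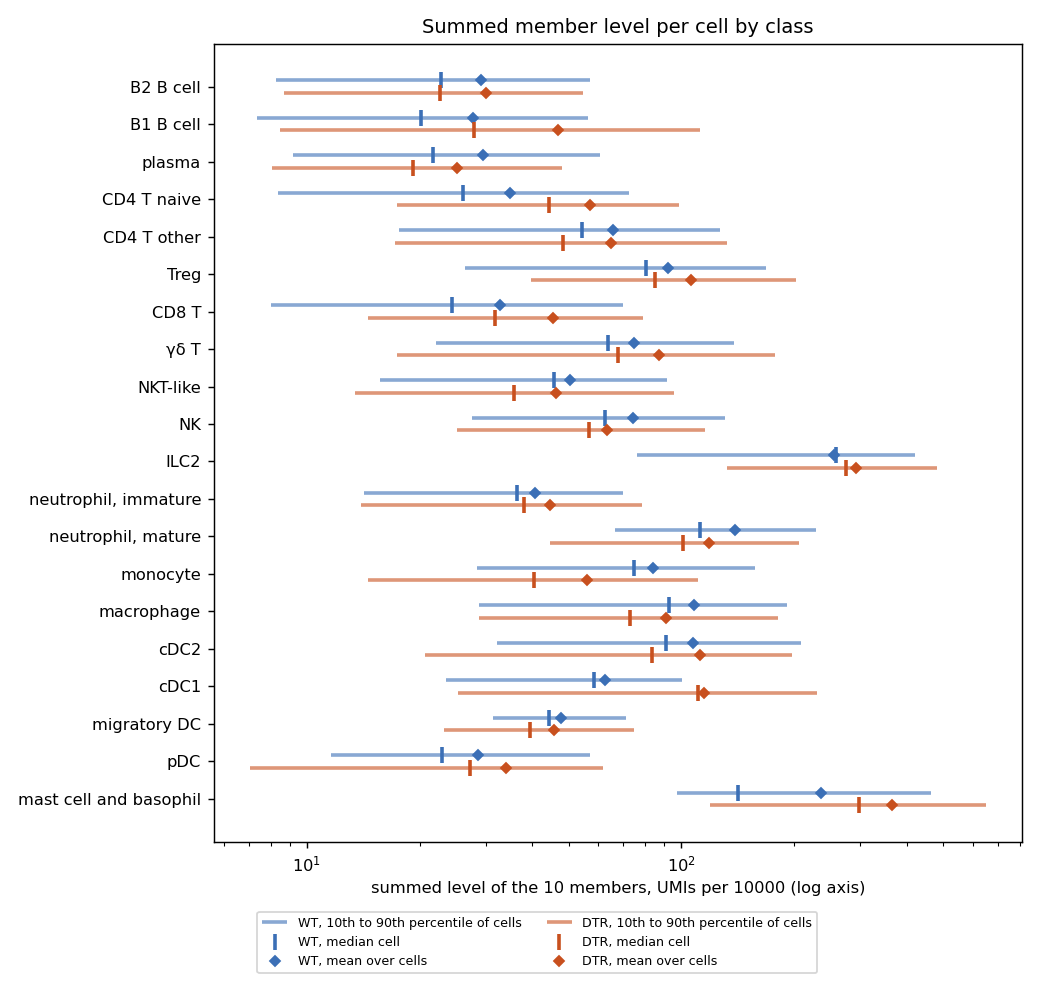
Summed level of the 10 members per cell (x axis, UMIs per 10000, log scale) in each class (rows), WT in blue and DTR in orange; bars span the 10th to 90th percentile of cells, ticks are medians and diamonds are means. B1 B cells in DTR reach a 90th percentile of 112 against 56.3 in WT, with medians of 27.9 and 20.1.

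The AP-1 subunits differed in where they were found. *Fos* was highest in myeloid classes. Its level was 20.7 in monocytes, 15.3 in neutrophils with immature markers and 14.7 in macrophages of the WT library, against 0.998 in B2 B cells and 1.07 in B1 B cells. In DTR the same 5 classes gave 13.4, 14.3, 9.55, 1.16 and 2.38. *Junb* was instead highest in innate lymphoid and T cells among the compared classes, at 109 in ILC2, 46.9 in regulatory T cells, 38.3 in γδ T cells and 34.1 in CD4 T cells outside the naive and regulatory subsets in WT. It was lowest in plasma cells, at 2.11 in WT and 2.88 in DTR.

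*Jun* split the myeloid cells. It stood at 5.84 in WT macrophages and 2.96 in WT monocytes, but at 0.338 in neutrophils with immature markers, which carried much *Fos*. Mature neutrophils, of which WT held 33, gave a single *Jun* UMI against 339 of *Fos* in WT, and 89 against 1810 in 380 DTR cells. In plasma cells *Jun* stood at 4.85 in WT and 4.94 in DTR, among lymphoid classes second to ILC2 (7.61 and 9.95). Mast cells and basophils, with only 14 and 7 cells, had 28.6 and 66.9. *Fosb*, a close relative of *Fos*, was highest among the compared classes in ILC2 (7.26 in WT and 6.97 in DTR) and next in macrophages (4.8 and 4.12). *Jund*, the least inducible subunit, varied least over the 13 classes in WT, 12.4-fold from 2.59 in neutrophils with immature markers to 32.0 in ILC2.

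*Atf3*, which encodes a stress-induced factor that pairs with AP-1 subunits, was concentrated in macrophages and type 2 conventional dendritic cells (8.02 and 8.13 in WT, 4.27 and 9.75 in DTR), and stood at 10.3 in the 12 type 1 conventional dendritic cells of DTR against 1.93 in WT. Among lymphoid cells it separated the B cell subsets. B1 B cells had 2.32 in WT and 3.01 in DTR, while B2 B cells had 0.220 and 0.519. *Atf3* was found in 13.1% of 513 WT B1 B cells after each cell had been thinned to 1000 UMIs (95% exact interval 10.3 to 16.3%), and in 1.65% of 1455 WT B2 B cells (1.06 to 2.44%).

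*Egr1*, a zinc finger factor induced by growth factors and antigen receptors, was highest among the compared classes in ILC2 (17.2 in WT and 14.6 in DTR), and high in type 2 conventional dendritic cells (11.5 and 10.6) and macrophages (9.01 and 5.5). *Nr4a1*, the orphan nuclear receptor Nur77 that reports antigen receptor signals in lymphocytes, ranged widest of the members, 148-fold in WT from 0.266 in plasma cells to 39.4 in ILC2. In T cells it was higher in regulatory T cells (6.36) than in CD8 T cells (1.18), and in NK cells it stood at 6.37. *Ier2* was highest among them in ILC2 (18.0 in WT and 17.6 in DTR) and next in NK cells (9.10 and 6.98). *Dusp1* was highest among the compared classes in macrophages (16.0 in WT and 16.5 in DTR), and stood at 29.9 and 21.7 in the mature neutrophils, which were not compared. In B2 B cells it was at 0.904 and 1.09, and in plasma cells at 0.599 and 0.386.

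Over all 130 pairs of member and class, 69 were higher in DTR and 61 lower, and the summed level was higher in DTR in 7 of the 13 classes and lower in 6. In 10 of the 13 classes it differed by less than 1.3-fold. Of the 122 pairs with at least 100 UMIs, 9 were at least 2-fold higher in DTR, where 1.75% of all 64262 gene and class pairs were, and 5 were at least 2-fold lower, where 2.27% were. These counts were 6 and 5 in summed UMIs with 0.02 added, 6 and 6 with classes from clusters, and 5 and 3 with a pseudocount of 0.1. The share over all pairs is given for the main setting only. Log2 ratios are of mean levels with 0.02 added. No member was higher in every class or lower in every class. *Dusp1* came closest, being higher in DTR in 10 of 13 classes with a median log2 ratio of 0.23, but in only 6 with classes from clusters. *Jun* was lower in 9 of 13 with a median of -0.20.

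**Figure D3:**
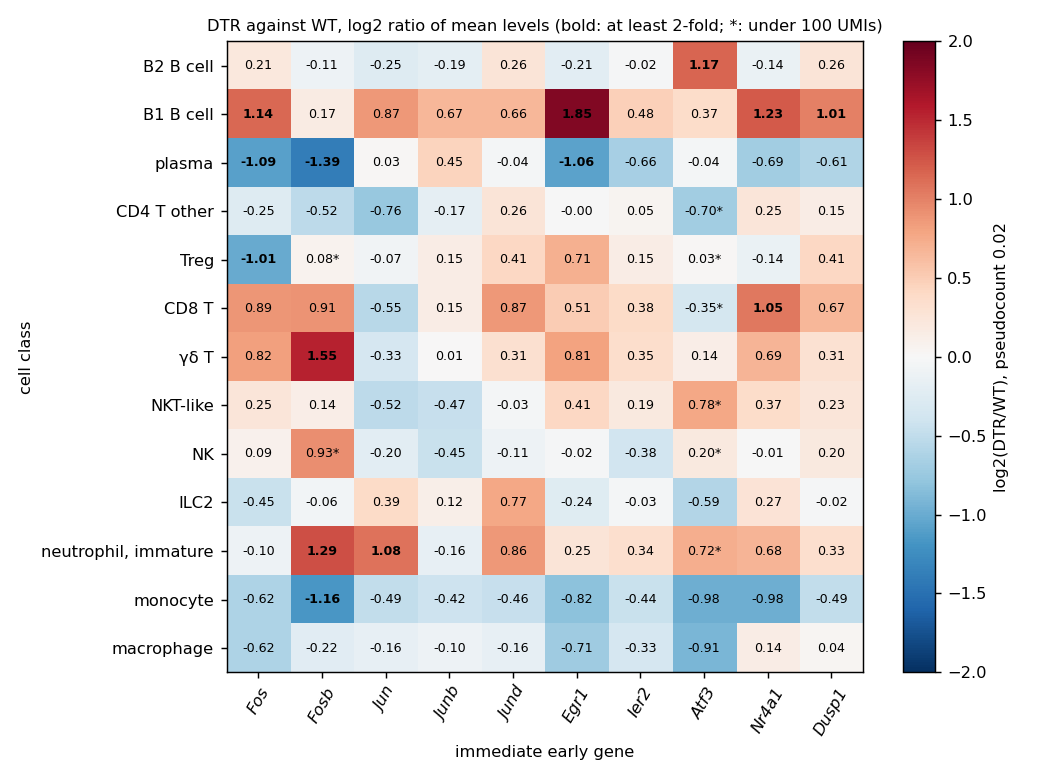
Log2 ratio of mean levels, DTR over WT with 0.02 added to each, for each member (columns) in the 13 compared classes (rows); red is higher in DTR, blue lower, bold marks at least 2-fold, and an asterisk marks fewer than 100 UMIs. The row of B1 B cells is red for all 10 members, the row of monocytes blue for all 10.

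B1 B cells, innate-like B cells of the body cavities, had all 10 members higher in DTR (514 and 210 cells). Their summed level was 27.8 in WT and 46.8 in DTR, a log2 ratio of 0.75, and 0.71 in summed UMIs (0.67 to 0.75). The median member differed by 0.77, against -0.01 for the median of 6554 genes. Of the 10 members 4, *Egr1*, *Nr4a1*, *Fos* and *Dusp1*, were at least 2-fold higher, where 1.75% of genes were, and 0 were at least 2-fold lower, where 1.59% were.

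*Egr1* stood at 0.563 in WT and 2.09 in DTR B1 B cells, a log2 ratio of 1.85, which was 1.09 with classes from clusters and 3.06 among cells with at most 1 plasma marker. *Nr4a1* stood at 2.07 and 4.90, a log2 ratio of 1.23, or 0.81 with classes from clusters. *Fos* was at 1.07 and 2.38 (1.14). *Dusp1*, at 0.843 and 1.72, lay on the line of 2-fold with 1.01, and at 0.96 once the single cell with the most *Dusp1* UMIs was left out of each library. One DTR cell held 104 of the 368 *Jun* UMIs, and without the top cells *Jun* differed by 0.68 in place of 0.87. *Fosb* differed least, at 0.455 and 0.515 (0.17).

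The difference lay more in the upper cells of the class than in the middle. The 90th percentile of the summed level per cell was 56.3 in WT and 112 in DTR, and the median 20.1 and 27.9. With cells thinned to 1000 UMIs, the share carrying *Nr4a1* was 16.2% in WT (13.1 to 19.7%) and 25.7% in DTR (19.9 to 32.2%), whereas the share carrying *Egr1* was 4.87% and 5.71%. All 10 members were higher in DTR in each of the clusters, 13 and 15, that held at least 20 B1 B cells from both libraries, with summed log2 ratios of 0.68 and 0.81 (49 DTR cells in cluster 13), and among cells with at least 2 B1 markers 9 were higher and *Fosb* was equal at 0.394 in both (summed log2 ratio 0.75). Plasma cell markers moved with this result, and their part in it was not tested beyond the subset given here. Their summed level over 7 genes was 12.3 in WT and 22.0 in DTR B1 B cells, with none of the 7 at 0, while in B2 B cells it was 5.60 and 7.06 and in the CD4 T cells outside the naive and regulatory subsets 2.53 and 8.37. Among the cells with at most 1 plasma marker, 130 in WT and 58 in DTR, the summed member log2 ratio was 0.86, and *Jun* was the 1 member not higher.

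**Figure D4:**
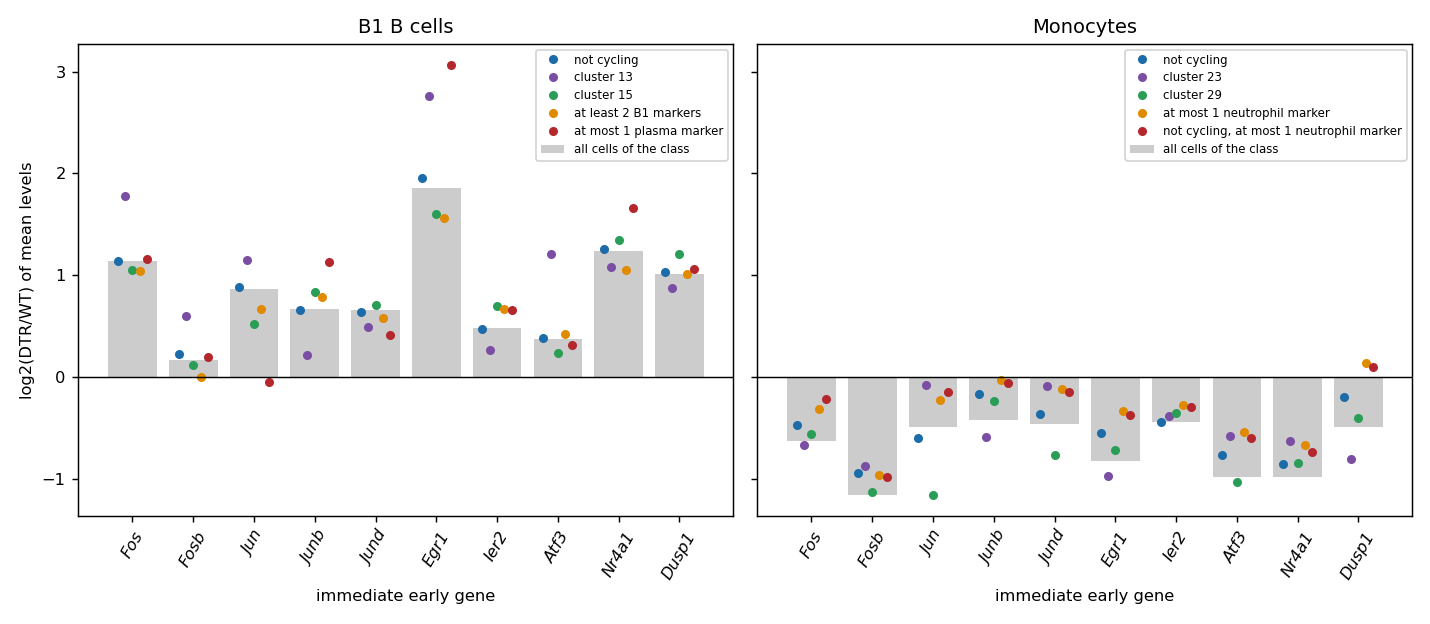
Log2 ratio of mean levels, DTR over WT, for each member in B1 B cells (left) and monocytes (right); grey bars are all cells of the class and coloured points are subsets of it. In B1 B cells nearly all points lie above 0, and in monocytes with at most 1 neutrophil marker (summed log2 ratio -0.20) the points lie closer to 0 than the bars.

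B2 B cells, the recirculating follicular kind, differed little (1459 and 270 cells). Their summed level was 29.1 in WT and 30.1 in DTR, a log2 ratio of 0.05, and 4 of the 10 members were higher. *Atf3* alone was past 2-fold higher, where 1.07% of 7475 genes were, at 0.220 in WT and 0.519 in DTR (1.17). A single DTR cell held 33 of its 116 UMIs there, and without the top cell of each library the log2 ratio was 0.71, and with classes from clusters 0.47. None was 2-fold lower, where 1.36% of genes were. All B cells together, B2, B1 and those given no subset (2648 and 942 cells), had summed levels of 29.5 in WT and 38.6 in DTR. That was a log2 ratio of 0.39 with all 10 members higher, and the cells given no subset were not compared apart.

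Plasma cells, 529 in WT and 2039 in DTR, parted the AP-1 subunits. *Fos* stood at 4.35 in WT and 2.04 in DTR (log2 ratio -1.09), *Fosb* at 1.31 and 0.490 (-1.39) and *Egr1* at 1.65 and 0.778 (-1.06). These were the 3 members at least 2-fold lower, where 2.4% of 9670 genes were, and 0 were 2-fold higher, where 2.22% were. *Jun* at 4.85 and 4.94 and *Jund* at 12.8 and 12.5 were near equal, and *Junb* was higher, at 2.11 and 2.88 (0.45). The summed level was 29.5 in WT and 25.1 in DTR, a log2 ratio of -0.23, and of -0.57 without *Junb* and *Jund*.

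The shares of single plasma cells with a UMI showed the same split. At 1000 UMIs per cell *Fos* was carried by 23.3% in WT (19.7 to 27.1%) and by 10.6% in DTR (9.25 to 12%). *Junb* was carried by 13.6% (10.8 to 16.8%) and 21.7% (19.9 to 23.5%). *Fos* was lower in DTR in all 5 plasma cell clusters with at least 20 cells in both libraries, by log2 ratios from -0.20 to -2.47. *Fosb* was lower in 4 of the 5 and higher in cluster 22, at 0.363 and 0.587 (0.66), where the summed level was also higher (0.27). With cycling cells left out, 11.5% of WT and 16.1% of DTR plasma cells, *Fos* differed by -1.21 and *Fosb* by -1.58. Immunoglobulin transcripts take up much of a plasma cell's total, and with receptor, mitochondrial and ribosomal protein genes left out of the totals the summed ratio was -0.39.

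Monocytes had all 10 members lower in DTR (183 and 215 cells). Their summed level was 83.8 in WT and 55.9 in DTR, a log2 ratio of -0.59. The median member differed by -0.56, against -0.03 for the median of 6788 genes. *Fosb*, at 1.58 and 0.697 (-1.16), was the 1 member at least 2-fold lower, where 4.24% of genes were, and 0 were 2-fold higher, where 1.77% were. *Nr4a1* stood at 7.40 in WT and 3.74 in DTR (-0.98), *Atf3* at 5.17 and 2.62 (-0.98) and *Fos* at 20.7 and 13.4 (-0.62). At 1000 UMIs per cell *Atf3* was carried by 30.6% of the monocytes in WT (24 to 37.8%) and by 16.3% in DTR (11.6 to 21.9%).

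Neutrophil markers and cycling cells moved with this result, and their part in it was not tested beyond the subsets given here. The summed level of the 10 neutrophil markers was 5.30 in WT monocytes and 58.0 in DTR monocytes, with 1 of 10 at 0 in WT and 0 in DTR, while in the B1 B cells of the same libraries it was 0.252 and 0.718. Cells with at least 2 cycling markers were 33.9% of WT and 46.0% of DTR monocytes. Without them (121 and 116 cells) the summed log2 ratio was -0.39, with all 10 members still lower. Among monocytes with at most 1 neutrophil marker (145 and 85 cells) the summed levels were 88.5 and 77.2, a log2 ratio of -0.20 with 9 of 10 members still lower and *Fosb* at -0.97. Within clusters 23 and 29 all 10 were lower, with summed log2 ratios of -0.56 and -0.53 (47 WT cells in cluster 23).

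Macrophages, 153 and 238 cells, were lower in DTR for 8 of the 10 members and none reached 2-fold, where 4.52% of 2985 genes were higher and 3.85% lower. *Atf3* stood at 8.02 in WT and 4.27 in DTR (-0.91), *Egr1* at 9.01 and 5.5 (-0.71) and *Fos* at 14.7 and 9.55 (-0.62). *Dusp1*, at 16.0 and 16.5, and *Nr4a1*, at 5.80 and 6.40, were the others. The median of all genes in macrophages was itself lower, at -0.10, against -0.19 for the median member. With the median of all genes subtracted, 3 of the 10 members were higher and the summed log2 ratio was -0.14 in place of -0.25. Macrophage cluster 33 held 18 WT and 155 DTR cells, and within cluster 32 the summed log2 ratio was -0.23. Summed levels of 3 marker lists named for other cells were higher in DTR macrophages. The 6 ILC2 markers stood at 0.432 in WT and 9.75 in DTR (3 and 2 at 0). Only 1 of the 6 reached the frequency asked of class markers above in DTR macrophages, and 0 did in WT. Which of the 6 gave that sum was not tested, so it cannot be read as ILC2 transcripts. The 10 neutrophil markers stood at 1.55 and 5.83 (3 and 1 at 0). The 7 plasma markers stood at 2.28 and 6.29 (none at 0). The part of these lists in the result was not tested. The share carrying *Fos* at 1000 UMIs per cell was 69.9% in WT (62.0 to 77.1%) and 44.0% in DTR (37.4 to 50.8%). Among the macrophages with no UMI of *Gata6*, which marks the large peritoneal macrophages, the summed log2 ratio was -0.19, and only 8 WT cells had one.

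Neutrophils with immature markers (253 and 481 cells) were higher in DTR for 8 of 10 members, at a summed level of 40.7 and 44.5, a log2 ratio of 0.13 beside a median of 0.12 over all genes. *Fosb*, at 0.118 and 0.318 (1.29), and *Jun*, at 0.338 and 0.739 (1.08), were at least 2-fold higher, where 1.45% of 6407 genes were. None was 2-fold lower, where 0.593% were. In summed UMIs both were below 2-fold, with 0.90 for *Fosb* and 0.98 for *Jun*. *Fos* itself was close, at 15.3 and 14.3, and *Jund* was at 2.59 and 4.73 (0.86).

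The T cell subsets did not move as one. All T cells together, also those given no subset (3058 and 470 cells), had summed levels of 59.4 and 72.2. That was a log2 ratio of 0.28 with 8 of 10 members higher. CD8 T cells (363 and 58 cells) had a summed level of 32.9 in WT and 45.3 in DTR, a log2 ratio of 0.46, and of 0.17 within cluster 12 (119 and 26 cells). Cycling cells were 3.03% and 10.3% of the class, and without them the ratio was 0.50. *Nr4a1*, at 1.18 and 2.46 (1.05), was their 1 member at least 2-fold higher, where 1.55% of 3361 genes were, and 0 were 2-fold lower, where 2.41% were. The log2 ratio of *Nr4a1* was 0.84 in summed UMIs, and that of *Egr1* went from 0.51 to -0.42 without the top cells. In regulatory T cells (268 and 56 cells) the sums were 92.3 and 106, and *Fos*, at 2.54 and 1.25 (-1.01), was 2-fold lower, where 3.07% of 2667 genes were, with 41 UMIs in DTR. No member of theirs was 2-fold higher, where 1.91% were. That ratio of *Fos* was 0.08 when classes came from clusters.

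In γδ T cells (501 and 71 cells), lymphocytes that settle in tissues, *Fosb* was at 0.562 in WT and 1.68 in DTR (1.55), the 1 member at least 2-fold higher, where 1.44% of 4711 genes were. None was 2-fold lower, where 2.82% were. The summed level of the γδ T cells was 74.5 in WT and 87.1 in DTR, a log2 ratio of 0.23, with 9 of 10 members higher. *Egr1* there differed by 0.81, but 1 DTR cell held 29 of its 67 UMIs, and without the top cells the log2 ratio was -0.03. *Junb* was the same in both, at 38.3 and 38.6. The other CD4 T cells (539 and 81 cells) had sums of 65.7 and 64.9 and no member past 2-fold, where 1.4% of 4501 genes were higher and 3.13% lower.

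Innate lymphocytes and NKT-like cells differed in level, and ILC2 had the highest sum of the compared classes in both libraries. ILC2 (125 and 104 cells) had summed levels of 256 and 292, a log2 ratio of 0.19, with 4 of 10 members higher. No member passed 2-fold, where 4.34% of 1291 genes were higher and 2.01% lower. *Jund* differed most, at 32.0 in WT and 54.6 in DTR (0.77), and was found in 75.2% (66.7 to 82.5%) and 90.4% (83.0 to 95.3%) of cells at 1000 UMIs, while without *Junb* and *Jund* the sum differed by 0.04. NK cells (315 and 115 cells) had 74.1 and 63.3, a log2 ratio of -0.23, of which *Junb* gave most, at 33.0 and 24.1 (-0.45). None of their members passed 2-fold, where 0.801% of 2997 genes were higher and 1% lower. NKT-like cells (537 and 88 cells) had 50.5 and 46.3, a log2 ratio of -0.12, with 7 of 10 members higher and *Junb* at 23.8 and 17.2 (-0.47). Without *Junb* and *Jund* their sum was higher in DTR, by 0.23. They had no tested member past 2-fold, where 1.11% of 4855 genes were higher and 1.73% lower.

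Shares of cells with a UMI were compared at 1000 UMIs per cell over all 13 classes. The 95% exact intervals of the libraries lay apart in 7 pairs of member and class with the higher share in DTR, where 1.63% of all 64262 tested pairs did, and in 8 with the lower share in DTR, where 1.33% did. *Jund* was higher in 3 of these, in CD8 T cells (40.4% in WT and 62.1% in DTR), ILC2 and neutrophils with immature markers. *Nr4a1* was higher in B1 B cells and neutrophils with immature markers and lower in monocytes (40.4% and 25.1%). All 3 pairs of *Fos*, in plasma cells, monocytes and macrophages, had the lower share in DTR. No class that should lack these genes was at hand, so a background share from free RNA could not be given.

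Within classes the members tended to be found in the same cells. At 2000 UMIs per cell, 562 cases of 2 members in 1 class of 1 library had at least 20 cells expected with both from the product of their shares. The number of cells with both was above that product in 505 of them, with a median ratio of 1.07. Most of these excesses were small, and 21 cases reached 1.5. They were largest in plasma cells, where *Fosb* was found in 22.8% of the DTR cells with *Fos* and in 3.20% of those without, and in 35.0% and 7.07% in WT. *Egr1* was found in 19.9% of DTR plasma cells with *Fos* and in 4.51% of those without. In WT B2 B cells *Nr4a1* was found in 68.8% of cells with *Egr1* and 32.5% of those without.

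A list of 29 other immediate early genes was followed beside the members. In B1 B cells 21 of the 23 with at least 100 UMIs were higher in DTR, 8 of them at least 2-fold where 1.75% of all genes were, with a median log2 ratio of 0.81 against -0.01 over all genes. In monocytes 21 of 24 were lower and 9 of them at least 2-fold where 4.24% of all genes were, with a median of -0.53, in the class whose neutrophil markers were at 5.30 and 58.0. *Gadd45b*, a stress-response gene, was higher in 9 of 12 classes (median 0.43) and stood at 0.727 in WT and 0.245 in DTR monocytes. In macrophages the median was 0.01. *Fosl2*, the AP-1 subunit Fra-2, was higher in DTR in all 13 classes, with a median log2 ratio of 0.65, for instance at 5.64 and 12.8 in ILC2. *Socs3*, which feeds back on cytokine receptors, was higher in 11 of 12 classes with a median of 0.73, *Maff* in 2 of 3, and *Ier3* in 4 of 5, at 3.44 and 11.7 in macrophages.

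The kinases and factors that act on immediate early genes were a list of 12. In B1 B cells 5 of 10 tested were higher and none was past 2-fold, where 1.75% of genes were higher and 1.59% lower. In monocytes 1 of 11 was 2-fold lower (4.24% of genes). In ILC2 2 of 3 were 2-fold higher (4.34% of genes), with a summed log2 ratio of 0.78. Treg had 1 of 6 2-fold lower (3.07%) and γδ T cells 1 of 10 higher (1.44%). Macrophages had 1 of 6 higher (4.52%) and 1 lower (3.85%). *Crem*, which encodes repressors that bind the CRE, was higher in all 12 classes tested, with a median log2 ratio of 0.70, and *Rela* in 10 of 13 (0.22). *Creb1* was higher in 3 of 11 (-0.31) and *Mapk8* in 1 of 3 (-0.47). Among 7 partners of AP-1, *Atf4*, a factor of the integrated stress response, was higher in 12 of 13 classes (0.24), *Mafg* in 7 of 7 (0.36), *Jdp2* in 6 of 6 (0.90), *Batf* in 7 of 10 (0.28) and *Ddit3* in 5 of 6 (0.42).

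**Figure D5:**
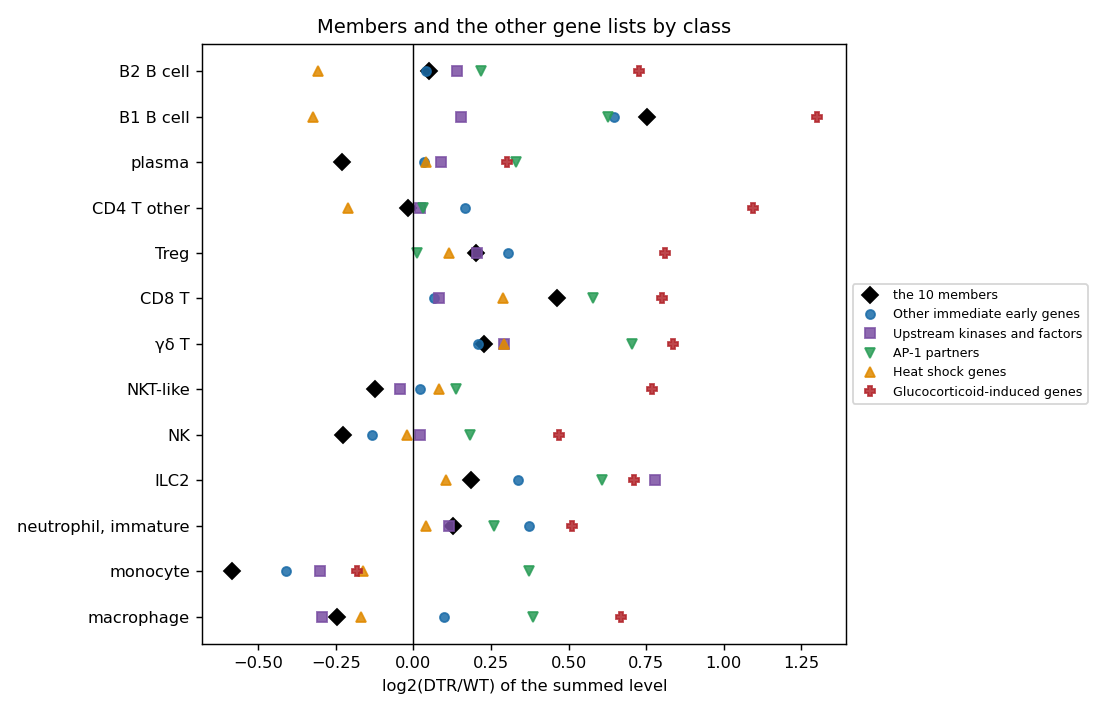
Log2 ratio of the summed level, DTR over WT (x axis), of the 10 members (black diamonds) and of 5 other gene lists in the 13 compared classes (rows). The glucocorticoid-induced genes lie to the right of 0 in all classes but monocytes, the members on both sides.

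Heat shock genes and genes that glucocorticoids induce gave different pictures. Of 10 heat shock genes, none of the 8 tested in B2 B cells was higher in DTR and 1 of the 8 tested in B1 B cells was, with median log2 ratios of -0.50 and -0.47, while in γδ T cells the median was 0.23. *Hspe1*, a mitochondrial chaperonin, was lower in all 13 classes (median -0.53), *Hspa1b* in all 4 tested (-1.88), *Hspa1a* in 2 of 3 (-1.68), *Hsph1* in 6 of 8 (-0.78) and *Hsp90aa1* in 11 of 13 (-0.28). Of 8 glucocorticoid-induced genes, all 4 tested in B1 B cells were higher in DTR, and their sum was 3.41 in WT and 8.39 in DTR (1.3). *Fkbp5*, a co-chaperone of the glucocorticoid receptor, was higher in all 9 classes tested, with a median of 2.05, *Tsc22d3* in 12 of 13 (0.96), *Ddit4* in 10 of 11 (0.65) and *Klf9* in 4 of 5 (0.70), while *Sgk1* was higher in 1 of 7 (-0.39). *Dusp1*, itself a known glucocorticoid target, was higher in 10 of 13 classes, but in only 6 with classes from clusters. The part of either list in the member values was not tested.

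The genes whose level over the 20 classes of both libraries (40 points) was most like the summed member level were *Btg2* (Spearman's rho 0.85), *Nfkbiz* (0.84), *Ccnl1* (0.82), *Kdm6b* (0.82) and *Csrnp1* (0.81), out of 9758 genes with at least 500 UMIs. The points of 1 library share its depth and its handling. Among the members, *Dusp1* was most like the sum of the other 9 (0.89) and *Atf3* least (0.27).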

How the data were processed

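The deposited matrices held natural log values, ln(1 + UMIs per 10000 of the cell), made by the authors, and whole UMIs were recovered from them (99.965% of WT and 99.908% of DTR values whole within 0.1). The submitters' processing notes name Cell Ranger 6.0.0 and mm10. The labels name a 5′ kit and the study's methods a 3′ kit, so the transcript end counted is not certain. Cells with 200 to 7500 genes and at most 25% mitochondrial UMIs were kept.

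Classes were set by the number of markers found per cell, with thresholds chosen after the files were seen and without the members. The γδ rule was lowered to 2 markers so that the class reached 50 cells, and the B1 rule also took cells with 1 B1 and no B2 marker. Called doublets (152 in WT and 103 in DTR) stayed in and were left out as an alternative. The automatic doublet threshold had marked only 2 WT cells, so that of the DTR library was used for both. Clusters came from scanpy 1.11.5, without the members.

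Ratios used a pseudocount of 0.02, and a gene entered counts with at least 100 UMIs over both libraries of a class. Intervals are 95% exact Poisson or Clopper-Pearson intervals, or conditional binomial for ratios (scipy 1.17.1), and cover counting error only. Of each gene list, the up to 5 genes with the largest median difference over at least 3 classes were named, except 1 that is not reported here. Recovery of known differences was tested on simulated data. The members and lists were chosen with earlier results of these data known.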

Additional observations from a re-analysis of the deposited data

Results flagged for a closer look

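B1 B cells and monocytes differed in opposite directions. All 10 members were higher in DTR in B1 B cells, with a summed log2 ratio of 0.75, and 0 of the 10 were higher in monocytes, with a summed log2 ratio of -0.59. This difference was not tested, since each group has 1 library.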

How the results depend on the processing

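No paired analysis was possible because each group has 1 library, and for the same reason no library could be left out. For the sum of all 10 members over a whole class, CD4 T cells outside the naive and regulatory subsets changed direction, from -0.05 to 0.01, and the other 12 classes kept theirs under each alternative run for them (CD8 T cells had no value with classes from clusters). Without *Junb* and *Jund* the direction turned in NKT-like cells (0.23), those CD4 T cells (0.03) and B2 B cells (-0.01), and within clusters it turned in plasma cluster 22 (0.27) and neutrophil cluster 39 (-0.06). Over all of these the sum ran from 0.66 to 0.89 in B1 B cells and from -0.67 to -0.19 in monocytes. With classes from clusters *Fos* in regulatory T cells reversed to 0.083, and *Dusp1* was higher in 6 classes. With a pseudocount of 0.1, 5 pairs of member and class were at least 2-fold higher and 3 lower, and at 1.5-fold 23 were higher and 17 lower. Thinned to 2000 UMIs, 13 pairs had the lower share in DTR with intervals apart, as did 13 without thinning. The shares of all gene and class pairs at these settings are not given, so these counts have no background beside them. The cause of these moves was not tested. Cells with few neutrophil or plasma markers, cycling cells, stricter marker rules, values within clusters, the sum without *Junb* and *Jund*, and values without the top cell were added after seeing the data. The compared T cell subsets had 56 to 88 DTR cells each, and 1291 genes could be tested in ILC2.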
